A study of Mus musculus with 11 samples.

Results

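The 10 genes described here belong to the unfolded protein response and the integrated stress response, and they were taken by symbol from a table of 14604 genes. They are the transcription factors Atf4, Atf3, Ddit3 and Xbp1, the ATF4-linked genes Trib3, Asns and Sesn2, and the endoplasmic reticulum (ER) genes Hspa5, Herpud1 and Pdia4. All 10 were listed with a value in all 11 libraries, and all 10 had a mean log2 value above the minimum of 0.5 that left 13897 genes for testing.

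When misfolded proteins gather in the ER, the sensors PERK, IRE1 and ATF6 raise the folding and disposal capacity of the organelle and slow protein synthesis. PERK shares its substrate, the translation factor eIF2alpha, with kinases that sense amino acid shortage, heme shortage and double-stranded RNA. Phosphorylation of eIF2alpha lowers general translation but favors translation of Atf4 mRNA, and ATF4 protein then activates genes of amino acid supply, redox control and cell death. IRE1 acts by splicing Xbp1 mRNA. RNA values summed by gene, as here, measure neither the translation of Atf4 nor the splicing of Xbp1.

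RNA was sequenced from cells sorted as live CD4+GITR+CD25+ regulatory T cells (Tregs) out of MC38 tumors, which are grafts of a mouse colon adenocarcinoma line, and, per the study's methods, out of the spleens of those mice. Control mice (WT) carried CD177flox/flox, and knockout mice (KO) carried CD177flox/flox/FOXP3-CreYFP, so both genotypes shared the floxed allele and the Foxp3-driven Cre with its YFP was present in KO mice only. A difference between genotypes therefore cannot be told apart from one due to the Cre-YFP allele. There were 3 spleen WT, 3 spleen KO, 3 tumor WT and 2 tumor KO libraries. The labels give neither age nor strain and do not say whether libraries of a group came from different mice or which spleen and tumor libraries share a mouse, so p-values measure the spread between these libraries, which may be technical.

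Values are the deposited log2(n + 1), where n is what the authors' processing made of a gene's estimated count and 1 is their pseudocount. A difference is on that scale, and it understates the change of genes with low values. Whether n was scaled for depth is not stated. Summed over genes, n came to between 712832 and 844331 in the spleen libraries and between 1103159 and 1304548 in the tumor libraries. Of these totals Gm12896, a gene named after its values were seen, took 31.4% to 42.4%. The totals are far below the approximate read depth per library that the study's methods give, so n may not be a read count. Whether the gap in totals between tissues comes from depth was not tested. The tumor-to-spleen difference of a gene was therefore also computed after quantile normalization, after centring each library on its median and after equal library totals with or without Gm12896. Over all genes tested, the median difference was 0.08 as deposited, -0.16 with quantile normalization, -0.14 with centred medians and -0.44 when totals were equal. Of all calls, 54.5% were higher in tumor as deposited, 42.1% and 43.7% under the next 2 scalings, and 29.6% with equal totals.

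The sorted cell type was checked by its markers. Foxp3, the Treg lineage factor, had a mean log2 value of 6.35 in spleen and 5.50 in tumor libraries, and Cd4 had 7.72 and 7.30. Il2ra, which encodes CD25, had 7.26 and 7.00, and Tnfrsf18, which encodes GITR, had 6.43 and 7.51. The sum of 14 Treg and T-cell markers ranged from 11.6 to 11.8 on the log2 scale in spleen and from 10.98 to 11.7 in tumor libraries. Of these 14 markers, 2 were called higher and 9 lower in tumor, and with equal totals 1 was higher and 12 were lower. In contrast, all 16 myeloid markers were higher in tumor, with a summed log2 level of 8.30 to 9.25 in spleen and 13.7 to 14.2 in tumor libraries. All 6 fibroblast markers tested were higher too, with sums of 3.16 to 4.37 and 10.01 to 11.2. Lyz2, Apoe and Ctss, which are abundant in macrophages, reached mean log2 values of 12.3, 11.1 and 11.01 in tumor, and Fn1, Col3a1 and Sparc, which encode matrix proteins, reached 8.93, 8.84 and 7.94. Of the other lists, 6 of 10 CD8 T and NK cell markers were higher and 1 lower, 5 of 6 B cell markers were lower, and 6 of 7 erythroid and platelet markers were lower and 1 higher. Among 4 plasma cell markers 1 was higher and 2 were lower, and 1 of 3 epithelial markers, Cdh1, was higher. No gene of the whole table was at exactly 0 in any library, so a value above 0 does not show that a marker was detected. The tissue difference of every gene described here moves with these markers, and their part in it was not tested. In bulk RNA, fewer cells of a type and less RNA per cell cannot be told apart.

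**Figure D1:**
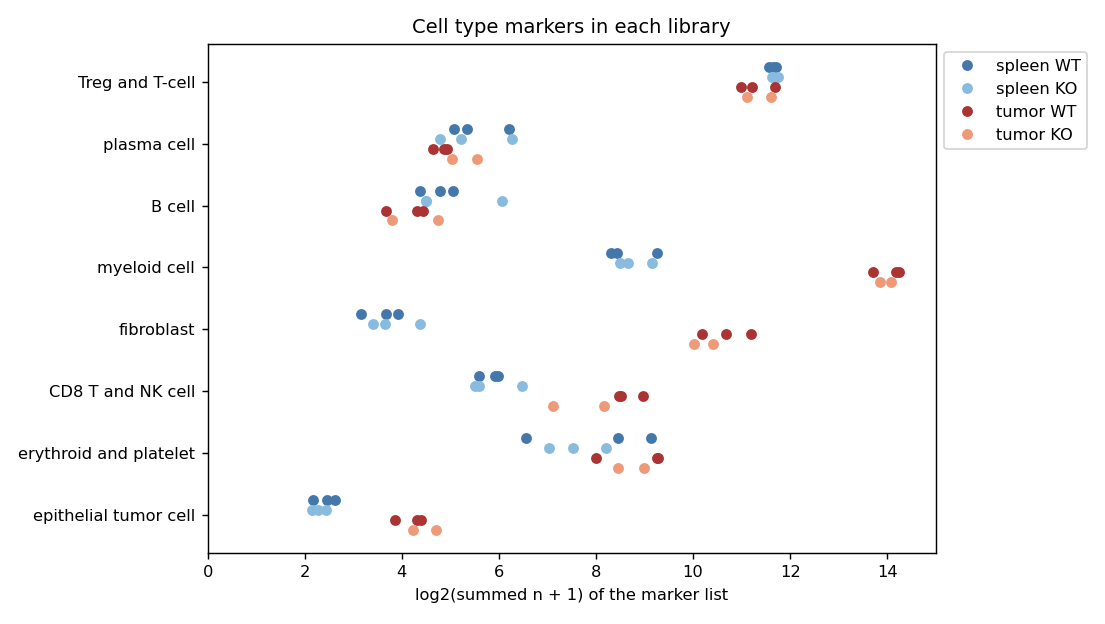
Summed level of each list of cell type markers in each of the 11 libraries, as log2(summed n + 1) on the x axis, with 1 row per list and 1 point per library colored by tissue and genotype. Myeloid sums lie between 8.30 and 9.25 in spleen and between 13.7 and 14.2 in tumor, while Treg and T-cell sums lie between 10.98 and 11.8 in all libraries.

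The main question of the design was how Tregs in tumors differ from those in spleens. The 10 genes were all higher in tumor than in spleen libraries as deposited (limma, Benjamini-Hochberg adjusted p below 0.05), against 43.1% of all genes tested that were called higher and 35.9% that were called lower. The 10 were chosen with earlier results of these data known, so counts set beside such shares are a description and not a test. For 9 of the 10, every tumor library was above every spleen library, which held for 35.2% of genes tested. Ddit3 was the exception. The median difference over the 10 genes was 1.18. With equal library totals, 7 of the 10 were called higher and 1, Atf4, was called lower, where 23.6% of all genes tested were called higher and 56.3% lower, and the median over the 10 was 0.57. After quantile normalization 7 were called higher and 1 lower, against 33.3% and 45.8% of genes tested, and after median centring 8 were called higher, against 34.8%. Atf3, Trib3, Asns, Xbp1, Pdia4 and Sesn2 were called higher under all 5 scalings.

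**Figure D2:**
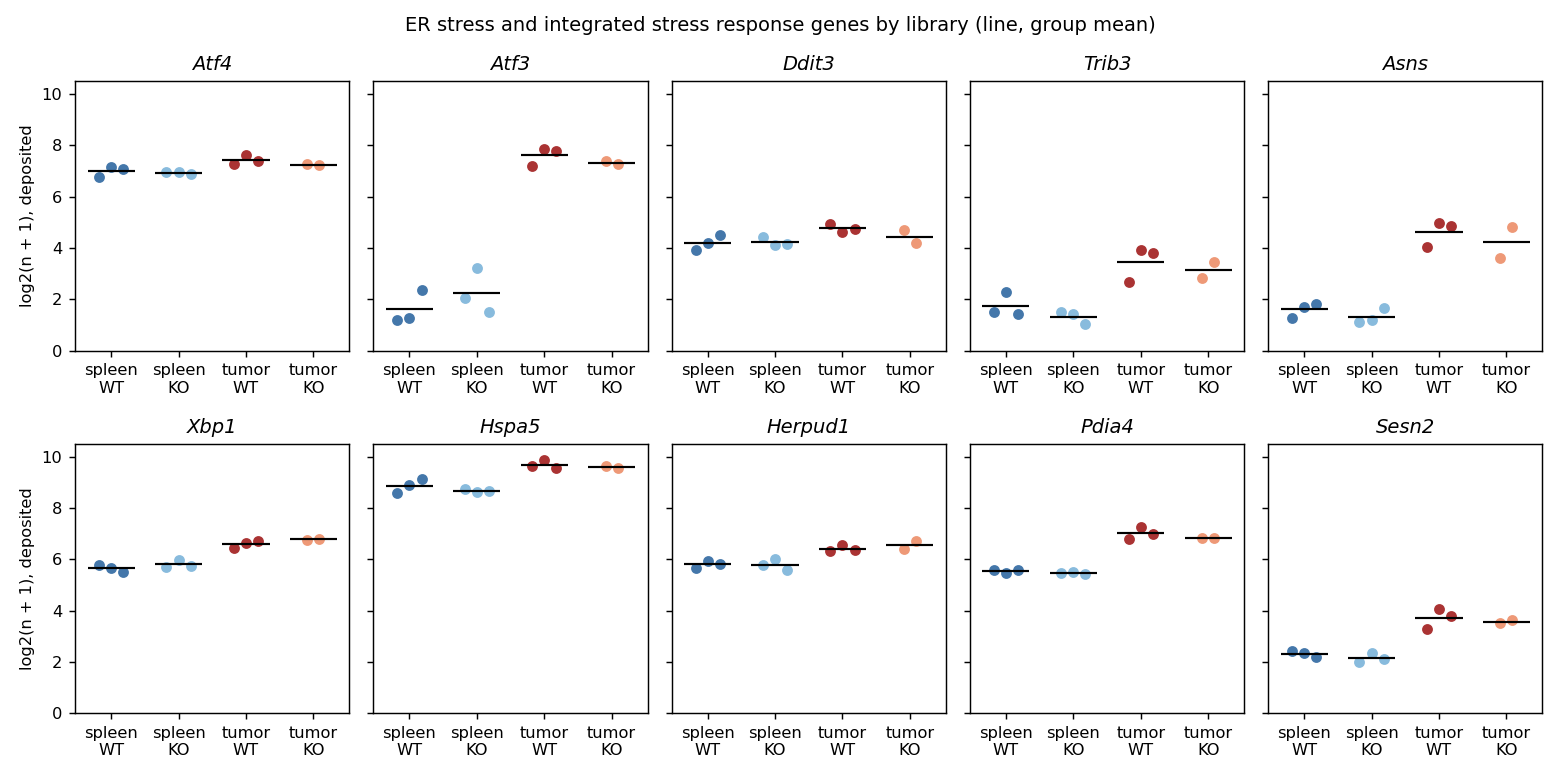
Deposited log2(n + 1) values on the y axis for the 10 genes, with 1 panel per gene, 1 point per library and a line at the mean of each group of 2 or 3 libraries. Atf3 runs from 1.19 to 3.23 in spleen and from 7.21 to 7.83 in tumor, while Ddit3 overlaps between the tissues.

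Atf4, the central factor of the integrated stress response, was abundant in both tissues and differed little. In the spleen WT libraries it was at 6.77, 7.15 and 7.09, and in the spleen KO libraries at 6.94, 6.95 and 6.90. In tumor it was at 7.28, 7.61 and 7.40 in WT and at 7.26 and 7.23 in KO. The lowest tumor library lay only 0.08 above the highest spleen library. Spleen averaged 6.96 ± 0.14 (SD, n = 6) and tumor 7.36 ± 0.16 (SD, n = 5), a log2 difference of 0.39 ± 0.08 (SE) with an adjusted p of 0.00088 and an exact two-sided permutation p of 0.0043, the smallest that 6 against 5 libraries can give. This direction depended on the scaling, because Atf4 was lower in tumor by -0.30 after quantile normalization (adjusted p = 0.0049) and by -0.23 with equal totals (adjusted p = 0.041), and its 0.17 after median centring did not pass (adjusted p = 0.077). Atf4 spans exons on the plus strand of chromosome 15 (80255184 to 80257541, GRCm38), and none of its transcripts' 31-base words occurred in another gene.

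Genes downstream of ATF4 differed by widely different amounts. Atf3, a stress-inducible factor of the ATF family that ATF4 can activate and that other signals induce as well, had the largest difference of the 10. It was at 1.19, 1.28 and 2.37 in spleen WT, at 2.06, 3.23 and 1.51 in spleen KO, at 7.21, 7.83 and 7.77 in tumor WT and at 7.38 and 7.27 in tumor KO. The lowest tumor library stood 3.98 above the highest spleen library. The spleen libraries were also the more scattered, at 1.94 ± 0.78 (SD, n = 6) against 7.49 ± 0.29 (SD, n = 5) in tumor. The log2 difference of 5.55 ± 0.32 (SE) corresponded to a 46.9-fold ratio of n + 1 (adjusted p = 5.13e-09, exact p = 0.0043) and ranked 74 among the rises of the 13897 genes. It was 5.01 with equal totals.

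Ddit3 encodes CHOP, a factor linked to cell death under lasting ER stress. It was at 3.93, 4.18 and 4.49 in spleen WT and at 4.43, 4.13 and 4.17 in spleen KO. In tumor it was at 4.95, 4.64 and 4.73 in WT and at 4.71 and 4.18 in KO, so that 1 tumor KO library lay among the spleen libraries. The difference was 0.42 ± 0.13 (SE; 95% confidence interval 0.13 to 0.71; adjusted p = 0.012; exact permutation p = 0.026). It did not pass under any of the 4 other scalings, where it was 0.18, 0.20, -0.18 and -0.18 after quantile normalization, median centring, equal totals and equal totals without Gm12896. The symbol Ddit3 covers 2 annotated genes on chromosome 10 (plus strand, from 127290774 to 127296288), and its exons overlap those of Mars and Gm4189 on the opposite strand. Of its 31-base words, 2.4% occur in other genes, and whether this affects its value was not tested.

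Trib3, a pseudokinase that ATF4 and CHOP induce and that dampens their activity, was low in spleen, at 1.51, 2.28 and 1.43 in WT and 1.5, 1.43 and 1.05 in KO. It was at 2.66, 3.93 and 3.79 in tumor WT and at 2.83 and 3.46 in tumor KO. All tumor libraries lay above all spleen libraries, by at least 0.38. The difference was 1.80 ± 0.26 (SE; adjusted p = 2.68e-05; exact p = 0.0043), a 3.48-fold ratio of n + 1, and it was 1.31 with equal totals.

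Asns encodes asparagine synthetase, an amino acid response gene used as a readout of ATF4. It was at 1.28, 1.71 and 1.83 in spleen WT and at 1.10, 1.18 and 1.67 in spleen KO. In tumor it was at 4.04, 4.97 and 4.85 in WT and at 3.62 and 4.82 in KO. The groups stood 1.79 apart at their nearest libraries, although the tumor libraries differed among themselves by more than 1. The difference was 3.0 ± 0.25 (SE; adjusted p = 1.43e-07; exact p = 0.0043), an 8.0-fold ratio of n + 1, which ranked 510 among the rises. It was 2.50 with equal totals.

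Sesn2 encodes sestrin 2, a leucine-binding inhibitor of mTORC1 signaling that is induced by ATF4. It was at 2.44, 2.36 and 2.18 in spleen WT, at 2.0, 2.35 and 2.11 in spleen KO, at 3.28, 4.06 and 3.81 in tumor WT and at 3.52 and 3.63 in tumor KO. The tissues did not overlap. Its difference of 1.42 ± 0.14 (SE; adjusted p = 7.02e-07; exact p = 0.0043) was 0.88 with equal totals. The other sestrins went the opposite way, since Sesn1 fell by 1.41 and Sesn3 fell by 1.75 on the log2 scale, and both were named after their values were seen.

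ATF4 with C/EBP partners binds the C/EBP-ATF response element (CARE). It was searched as TGATGNAA on both strands of RefSeq promoters (GRCm38.p6, 250 bases before to 50 after the start), which were found for all 10 genes. Only the first listed window of each of the 10 was searched, so any other start was not covered. Atf3, Trib3, Asns and Herpud1 held a match, against 3.97% of 32851 promoter windows. The sites of the 3 ATF4-linked genes with the largest differences are shown 5′ to 3′ on the strand of the gene, with the match in capitals. The Atf3 window lies inside the annotated gene but in no exon, at chr1:191183391-191183488, and the Trib3 site at chr2:152344028-152344057 and the Asns site at chr6:7693214-7693243 overlap an annotated exon. All 3 are on the minus strand.
Atf3: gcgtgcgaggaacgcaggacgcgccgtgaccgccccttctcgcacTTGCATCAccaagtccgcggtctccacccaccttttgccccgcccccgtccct
Trib3: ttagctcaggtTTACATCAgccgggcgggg
Asns: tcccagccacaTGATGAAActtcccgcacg
The Asns match reads along the gene, and the matches of Atf3 and Trib3 are on the other strand. A match describes the letters in the window and does not show that a factor was bound in these cells. Sesn2 and Ddit3 held no match to these letters in the window searched.

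Xbp1, the target of IRE1, was higher in tumor by a moderate amount. It was at 5.77, 5.67 and 5.50 in spleen WT, at 5.69, 5.98 and 5.75 in spleen KO, at 6.46, 6.64 and 6.71 in tumor WT and at 6.77 and 6.79 in tumor KO. Every tumor library was above every spleen library. The difference was 0.95 ± 0.09 (SE; adjusted p = 3.86e-07; exact p = 0.0043), and it was 0.33 with equal totals (adjusted p = 0.023). Xbp1 is also a factor of secretory cells, and of the plasma cell markers tested, Tnfrsf13b had means of 4.14 in spleen and 4.32 in tumor, Fkbp11 had 0.85 and 2.98, and Jchain had 4.6 and 1.97. The remaining marker, Derl3, had 1.24 and 0.48 and was named after its values were seen.

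The ER genes were higher in tumor as deposited. Hspa5 encodes BiP, the HSP70 chaperone of the ER lumen that also holds the stress sensors inactive. It was at 8.59, 8.88 and 9.11 in spleen WT, at 8.72, 8.61 and 8.64 in spleen KO, at 9.62, 9.85 and 9.54 in tumor WT and at 9.63 and 9.57 in tumor KO. Every tumor library was above every spleen library. The difference was 0.88 ± 0.10 (SE; adjusted p = 2.79e-06; exact p = 0.0043), a 1.85-fold ratio of n + 1. It was 0.26 with equal totals (adjusted p = 0.033) and -0.01 after quantile normalization (adjusted p = 0.93), so its rise was not seen under that scaling.

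Pdia4, a protein disulfide isomerase of the ER, differed by more than Hspa5 and with little spread in spleen. It was at 5.57, 5.47 and 5.58 in spleen WT, at 5.47, 5.50 and 5.44 in spleen KO, at 6.80, 7.26 and 7.00 in tumor WT and at 6.82 and 6.83 in tumor KO. The gap between the nearest libraries of the tissues was 1.22, against SDs of 0.06 in spleen and 0.19 in tumor. The difference was 1.44 ± 0.08 (SE; adjusted p = 4.60e-09; exact p = 0.0043), and it was 0.82 with equal totals.

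Herpud1, a membrane protein of ER-associated degradation, was at 5.67, 5.95 and 5.81 in spleen WT and at 5.77, 6.02 and 5.58 in spleen KO. In tumor it was at 6.33, 6.56 and 6.36 in WT and at 6.40 and 6.70 in KO, above all spleen libraries. The difference was 0.67 ± 0.09 (SE; adjusted p = 2.06e-05; exact p = 0.0043). With equal totals it was 0.05 and did not pass (adjusted p = 0.70).

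Promoters of ER stress genes are known for the ER stress response elements ERSE (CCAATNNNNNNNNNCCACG) and ERSE-II (ATTGGNCCACG), which ATF6 and XBP1 recognize. In the same searched windows of the 10 genes, Hspa5 held the ERSE and Herpud1 the ERSE-II, against 0.119% and 0.0365% of all promoter windows. None of the searched windows held the XBP1-type element TGACGTGG, which 0.676% of all promoter windows did. The Hspa5 site at chr2:34772020-34772048 overlaps an exon of an annotated transcript. The Herpud1 window at chr8:94386272-94386432 lies upstream of the gene and holds a CARE before its ERSE-II. Both are on the plus strand, with matches in capitals.
Hspa5: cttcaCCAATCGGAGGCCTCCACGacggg
Herpud1: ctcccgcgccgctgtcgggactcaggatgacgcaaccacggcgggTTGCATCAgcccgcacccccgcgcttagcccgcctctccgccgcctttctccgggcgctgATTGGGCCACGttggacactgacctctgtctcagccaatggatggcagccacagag
The Hspa5 match spans positions -65 to -47 from the RefSeq start, and the ERSE-II of Herpud1 spans -52 to -42.

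**Figure D3:**
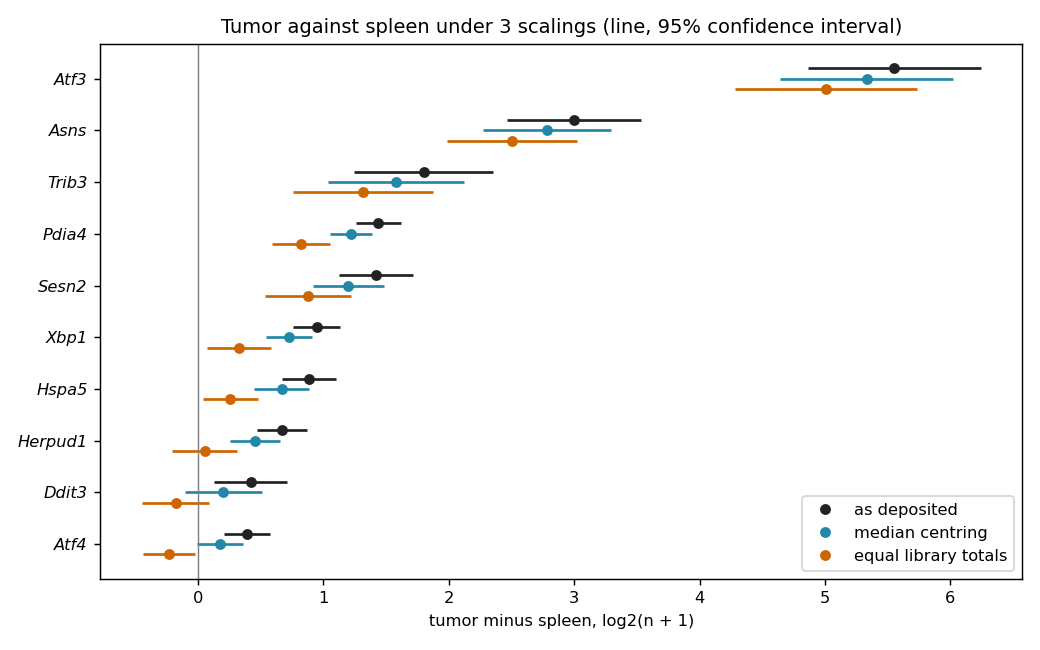
Tumor minus spleen difference in log2(n + 1) on the x axis for each of the 10 genes, as deposited, with centred medians or with equal library totals, with points at the estimate and lines over the 95% confidence interval. Atf3 and Asns stay far above 0 under all 3, while Atf4 goes from 0.39 to -0.23 and Ddit3 from 0.42 to -0.18.

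A comparison between genes within a library does not depend on a factor common to that library, apart from the pseudocount. In spleen, Ddit3 minus Hspa5 was -4.54 ± 0.15 (SD, n = 6), and in tumor it was -5.0 ± 0.30 (SD, n = 5), so that CHOP mRNA was lower relative to BiP mRNA in tumor by -0.47 (exact permutation p = 0.0087). Asns minus Hspa5 was -7.30 ± 0.22 in spleen and -5.18 ± 0.58 in tumor, a difference of 2.12 (exact permutation p = 0.0043) that ran from 1.07 to 2.64 with pseudocounts of 5 and 0.1. Relative to the BiP gene of the same library, the asparagine synthetase gene was thus higher and the CHOP gene lower in tumor as deposited. Quantile normalization does not apply a factor common to a library. After it, the tissue difference was 0.18 for Ddit3 and -0.01 for Hspa5, so the CHOP gene was not the lower under that scaling.

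The tumor libraries were not alike over the 10 genes. Tumor WT replicate 2 was the highest tumor library for 7 of the 10, and tumor WT replicate 1 was the lowest for 6. Ddit3 ran against this, since it was highest in tumor WT replicate 1. The same libraries also stood at the ends of the marker sums in tumor. Replicate 2 of tumor WT had the lowest Treg and T-cell sum (10.98) and the highest myeloid (14.2) and fibroblast (11.2) sums. Replicate 1 of tumor WT had the highest Treg and T-cell sum (11.7) and the lowest myeloid sum (13.7). The part of cell content in this order was not tested. Over the 11 deviations from the group means, which share library scale and so are a description, the strongest positive correlations were those of Pdia4 with Sesn2 (r = 0.81), Xbp1 with Sesn2 (r = 0.80) and Atf4 with Hspa5 (r = 0.79). The most negative was that of Ddit3 with Xbp1 (r = -0.71).

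Within WT mice, all 10 genes were called higher in tumor, against 39.2% of genes tested, with differences from 0.43 for Atf4 to 5.99 for Atf3. Within KO mice, 9 of the 10 were called higher, against 36.2%. Ddit3 was the one that did not pass, at 0.20 (95% confidence interval -0.24 to 0.64; adjusted p = 0.39), and Atf4 passed narrowly, at 0.32 (adjusted p = 0.046). With equal totals 5 of the 10 were called higher in WT and 5 in KO, against 21.7% and 18.7% of genes tested, and 6 in WT without Gm12896, against 22%. The tissue difference itself was not called different between genotypes for any of the 10, and 0% of genes tested were called for this interaction (limma; 383 genes had an unadjusted p below 0.05). For Ddit3 the interaction was -0.37 (95% confidence interval -0.96 to 0.22), so a smaller tissue difference in KO mice was not shown.

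The design also asked what Treg-specific loss of CD177 changes, and no difference between genotypes was detected for these genes in either tissue. Cd177 is not among the genes analysed here, so the genotype labels were not checked from it. In spleen, 0 of the 10 were called, as were 0% of genes tested (limma; 281 genes had an unadjusted p below 0.05). The KO minus WT difference was positive for 3 and negative for 7, and it ran from -0.41 for Trib3 to 0.65 for Atf3. In tumor, 0 of the 10 were called, against 0.0072% of genes tested, which is 1 gene (634 had an unadjusted p below 0.05). The difference was positive for Xbp1 and Herpud1 and negative for the other 8, with a range from -0.40 for Asns to 0.18 for Xbp1. The summed CD8 T and NK cell markers ran from 8.48 to 8.96 in tumor WT and from 7.11 to 8.17 in tumor KO libraries. Plasma cell marker sums ran from 4.63 to 4.92 and from 5.04 to 5.55, and the sums of the other marker lists overlapped. The part of cell content in the genotype differences was not tested.

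The intervals of these genotype differences were wide for genes of low or scattered values. For Atf3, the interval was -0.27 to 1.58 in spleen and -1.31 to 0.76 in tumor, which reach beyond 1 log2 unit. For Asns in tumor it was -1.23 to 0.43. It was narrower for Xbp1, at -0.08 to 0.39 in spleen and -0.09 to 0.44 in tumor, and for Pdia4, at -0.30 to 0.17 and -0.45 to 0.07. All these intervals contain 0.

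**Figure D4:**
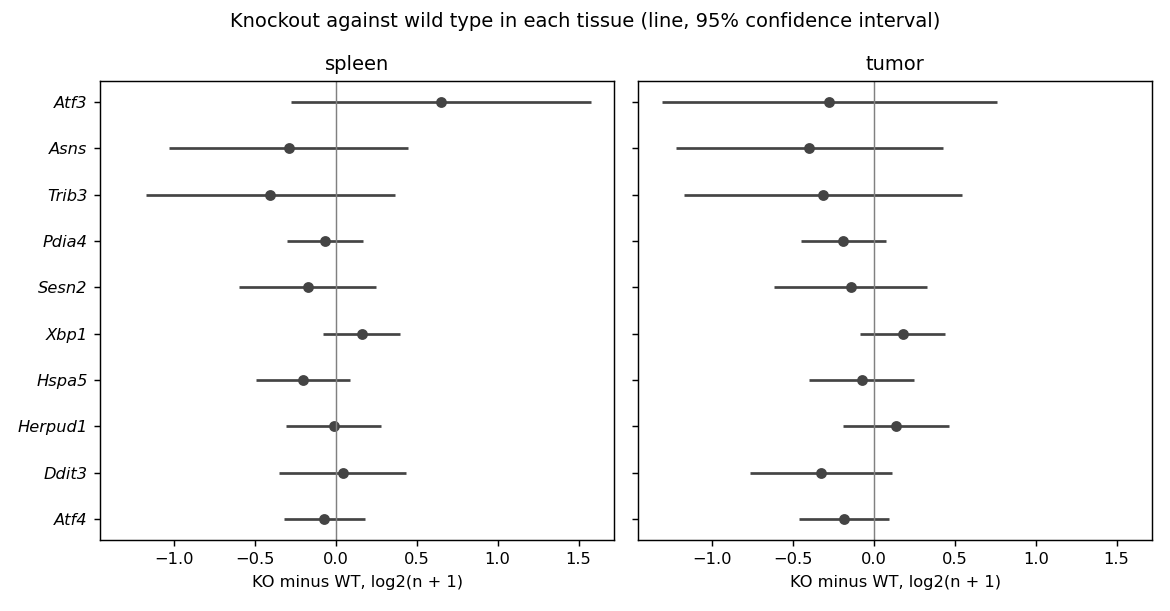
KO minus WT difference in log2(n + 1) on the x axis for each of the 10 genes, in spleen and in tumor, with points at the estimate and lines over the 95% confidence interval. All 20 intervals contain 0, and the widest are those of Atf3.

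Other genes of the pathway were taken from 9 lists that hold none of the 10. The lists too were chosen with earlier results of these data known, so their counts are a description. Of 83 such genes tested, 62 were called higher in tumor, 5 lower and 16 neither way, against 43.1% and 35.9% of all genes tested, and their median difference was 0.72. With equal totals 34 were called higher and 27 lower, with a median of 0.14, where 23.6% of all genes tested were called higher and 56.3% lower. Counts of single lists with equal totals are to be read against these same shares.

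Genes for ER protein folding were mostly higher. All 11 ER chaperones and co-chaperones were called higher, with a median of 1.36, and 9 of them with equal totals. Sdf2l1, a chaperone cofactor, rose by 2.33, Hsp90b1, the ER form of HSP90, by 1.56, and Manf, a secreted ER stress protein, by 1.52. Of 7 disulfide isomerases and oxidases, 6 were higher, with a median of 1.34, and with equal totals 6 were higher and 1 lower. Ero1l, the oxidase that recharges these isomerases, rose by 3.05, P4hb by 2.46 and Pdia6 by 1.66.

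Of 9 translocation genes, 8 were higher, with a median of 0.95, and with equal totals 5 were higher and 3 lower. They were led by the translocon genes Ssr2 (1.48), Ssr3 (1.47) and Sec61b (1.37). Of 12 genes of ER-associated degradation, 9 were higher and 1 lower, with a median of 0.38, and with equal totals 2 were higher and 6 lower. Derl2 (1.07), Selenos (0.82) and Ube2j1 (0.76) had the largest differences, and Syvn1, the main ubiquitin ligase of this route, fell by 0.30 and was named after its values were seen.

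Among the sensors, 4 of 6 genes of the IRE1 and ATF6 arms were higher, with a median of 0.73, and with equal totals 3 were higher and 2 lower. Ern1, which encodes IRE1alpha, rose by 1.83, Atf6 by 1.66 and the related factor Creb3l2 by 1.12. The list of eIF2alpha kinases and phosphatase subunits also holds genes that are neither, such as Eif2s1. This list differed least, with 3 of 8 higher, 1 lower and a median of -0.0021. With equal totals 0 of its genes were higher and 6 lower. Eif2s1, which encodes eIF2alpha, rose by 0.79 and Ppp1r15b by 0.44, while Eif2ak2, the kinase that senses double-stranded RNA, fell by 0.48. The PERK gene Eif2ak3, named after its values were seen, differed by -0.05 and did not pass.

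Other factors of the integrated stress response went both ways. Of 9 tested, 6 were higher and 3 lower, with a median of 0.92, and with equal totals 4 were higher and 3 lower. Chac1 is not among the genes analysed here. Nupr1, a small stress-induced chromatin protein, rose by 5.05, Atf5, a relative of ATF4, by 3.63, and Cebpb, which pairs with ATF4 and is abundant in myeloid cells, by 3.62. Besides Sesn1 and Sesn3, Trib2 fell by 2.58 and was named after its values were seen.

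Enzymes of amino acid and one-carbon supply included 5 of 9 called higher and 0 called lower, with a median of 0.59, and with equal totals 2 were higher and 3 lower. Gpt2, an alanine aminotransferase, rose by 2.52 and Psat1, of serine synthesis, by 1.0, while Cth differed by 0.80 and did not pass (adjusted p = 0.054). Of 12 aminoacyl-tRNA synthetases, 10 were higher, with a median of 0.69, and with equal totals 3 were higher and 3 lower. Aars, Nars and Gars led them at 1.43, 1.21 and 1.05.

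**Figure D5:**
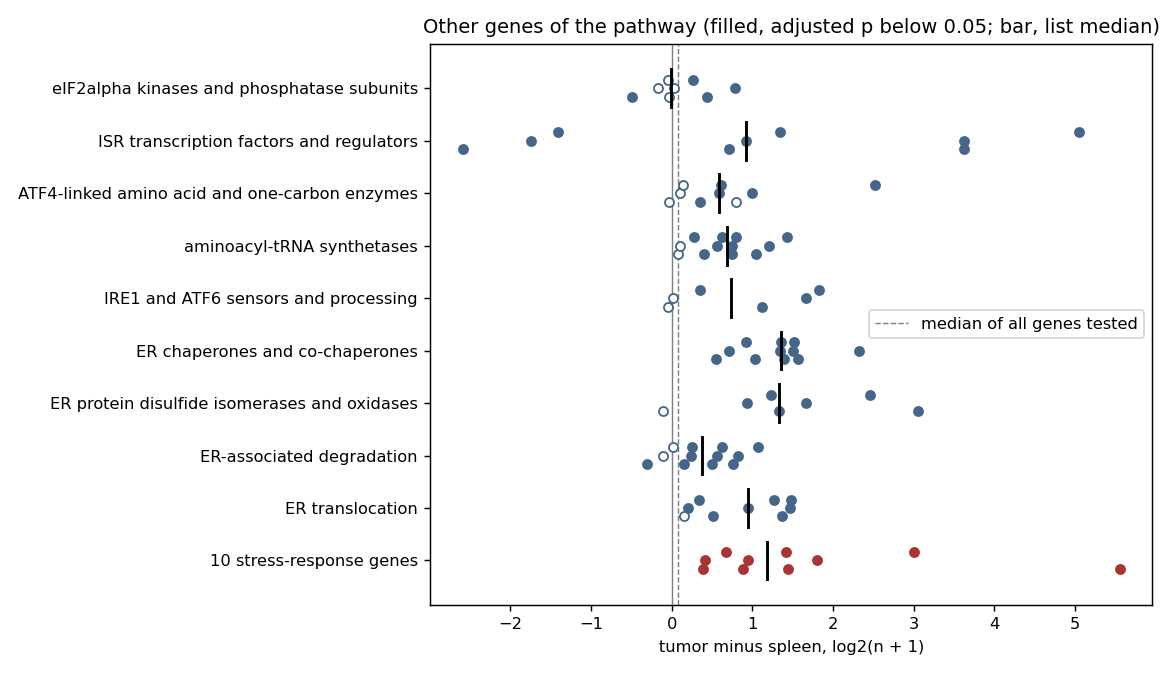
Tumor minus spleen difference in log2(n + 1) on the x axis, with 1 point per gene, for 9 lists of pathway genes and for the 10 stress-response genes. Filled points passed the test, bars mark list medians (1.36 for ER chaperones, -0.0021 for eIF2alpha kinases and phosphatase subunits) and the dashed line is the median of all genes tested, 0.08.

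The genes whose values most resembled those of the 10 over the 11 libraries were found by Pearson's r among all genes tested, as a description that rests mainly on the split between tissues. Atf3 was nearest to Ncf1 (r = 0.997), a subunit of the phagocyte oxidase whose mean was 3.20 in spleen and 6.63 in tumor, and to Nfil3 (r = 0.995). Copz2 was among the 2 genes nearest to Asns. Xbp1 was nearest to Arcn1 and Tspan17, and Sesn2 to Slc22a4 and Azin2. Pdia4 was nearest to Rrbp1 (r = 0.997), a ribosome-binding protein of the ER, and to Adamts4. Hspa5 was nearest to Baiap2 and to Calr (r = 0.980), which encodes the ER chaperone calreticulin, and Herpud1 to Rhobtb1 and Dnajc8. Atf4 was nearest to Itga1 and Eef1b2, Trib3 to Gstp1 and Tm7sf3, and Ddit3 to Rasd1 and Rab26 (r = 0.948).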

How the data were processed

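RNA of sorted Tregs was sequenced in 11 libraries, and their labels gave tissue and genotype. The authors removed ribosomal RNA, pseudoaligned reads with kallisto (version not given in the sources used here) to mm10, aggregated values by symbol in sleuth 0.30.0 and deposited them as log2(n + 1). The study's methods give 1 approximate read depth for all libraries, but whether n was rescaled is not stated. The counts behind n are therefore unknown, no count test was run, and precision rests on the spread between libraries. The values were tested as deposited with limma 3.58.1 (R 4.3.3, mean-variance trend, Benjamini-Hochberg) on the 13897 genes with a mean of at least 0.5, with 707 left out. Tissue was tested with genotypes pooled, and a model with 4 group means gave the tissue difference in each genotype, their interaction and the genotype differences. Single genes also had exact two-sided permutation tests (scipy 1.17.1). The script was tested on simulated data.

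The 10 genes and the pathway and marker lists were chosen with earlier results of these data known. Besides the 10, genes named are, per pathway list, the 3 with the largest tissue difference, per marker list, up to 3 with the highest tumor mean, the sort markers, and the 2 nearest in pattern to each of the 10. One gene that this rule names is not reported here. Other genes are marked as named after their values were seen. Alternatives changed the scaling, the pseudocount (0.1 or 5), the filter, the variance trend, the correction, the model, the replicate block and the libraries. Equal totals without Gm12896 was added after seeing the data. Annotation is GENCODE M21 (GRCm38), and promoters are RefSeq (GRCm38.p6).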

Additional observations from a re-analysis of the deposited data

Results flagged for a closer look

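In each tissue, the 10 genes were searched for a lone library far from the others, by the gap to its nearest neighbor over the whole range, which made 20 groups. About 1 is expected by chance, and 2 were found. Trib3 was at 2.28 in spleen WT replicate 2, where the other 5 spleen libraries ran from 1.05 to 1.51. Hspa5 was at 9.85 in tumor WT replicate 2, where the other 4 tumor libraries ran from 9.54 to 9.63.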

How the results depend on the processing

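Of 30 tissue differences (10 genes, pooled and in each genotype), 10 kept direction and side of the threshold under every alternative run on single genes, and 20 did not. A required size of difference was applied to the counts of genes only. Requiring an absolute difference of 1 left 5 of the 10 genes in the pooled, WT and KO comparisons (4556, 4646 and 4387 of the 13897 genes tested, called either way). Bonferroni adjustment left 6, 4 and 2, all higher (5051, 2449 and 1857 of all genes either way, of which 3108, 1734 and 1358 were higher). Equal totals left 5 in WT and 5 in KO (3015 and 2593 of all genes higher), and 6 in WT without Gm12896 (3063 of all genes higher). The cause of the following reversals was not tested beyond the scaling itself. After quantile normalization Atf4 was -0.30 pooled, -0.30 in WT and -0.34 in KO, Hspa5 was -0.0093 pooled and -0.11 in WT, and Ddit3 was -0.028 in KO, as it was -0.0037 after median centring. With equal totals Atf4 was -0.23, -0.18 and -0.32 and Ddit3 was -0.18, -0.011 and -0.41 in the same order. Without Gm12896 these were -0.23, -0.22 and -0.27, and -0.18, -0.049 and -0.36, and Herpud1 was -0.031 in WT. Leaving out 1 library at a time, the 10 genes stayed called in the pooled comparison, Ddit3 in WT lost its call without spleen WT replicate 1 (0.44), Ddit3 in KO ran from -0.062 without tumor KO replicate 1 to 0.46 without tumor KO replicate 2, and Atf4 in KO lost its call when any 1 of 7 libraries was left out. Over all genes, the interaction gave 0 to 1 call and 1 with a pseudocount of 0.1, and KO against WT in tumor gave 0 to 2 when a library was left out and 0 with quantile normalization, median centring, equal totals without Gm12896, a pseudocount of 5, no filter, tissue alone or the replicate block. Deviations of same-numbered libraries correlated at -0.13 to 0.04 between spleen and tumor and at -0.19 to 0.04 between genotypes in spleen. The 2 tumor pairs of WT and KO gave 0.28 and 0.45. The deviations of the 2 tumor KO libraries from their shared mean mirror each other, so these 2 values are not independent. The labels name no shared mouse or batch, and with 2 pairs the numbers were not taken as pairs. With the replicate block, 5753 genes were higher and 4759 lower in tumor, Atf4 in KO (0.30) lost its call and no other of the 10 did.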
